A study of Mus musculus with 6 samples.

Results

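The genes described here are 10 inflammatory cytokines, cytokine antagonists and receptors: *Il1a*, *Il1b*, *Il1rn*, *Il1r1*, *Il18*, *Tnf*, *Il6*, *Il10*, *Tnfrsf1a* and *Tnfrsf1b*. They were taken by symbol from an RNAseq count table of 22601 genes, and each symbol had 1 row. The question was whether their transcripts differed between wild-type (WT) osteoclasts and osteoclasts that lack *Slc37a2*, which encodes a sugar transporter of the osteoclast secretory lysosome. The table holds 3 WT and 3 *Slc37a2* KO libraries. The sample labels describe osteoclasts grown from bone marrow macrophages over 5 days with M-CSF (2 ng/ml) and RANKL (10 ng/ml). The study's account of its results also speaks of RNAseq of WT and KO osteoclasts. Its RNAseq methods, in contrast, describe RNA from whole femurs and tibias. The column headings hold an age of 11 weeks, an F and a code. The code is read here as an animal number, although the headings do not say so. Libraries are named by it: K090, L080 and L082 for WT, and K089, L078 and L081 for *Slc37a2* KO. All animals were on the C57BL/6N background, and WT mice were littermates. KO mice were homozygous for the *Slc37a2* tm2a(KOMP)Wtsi allele, a gene trap inherited in every cell rather than removed by Cre in osteoclasts alone. The line came from 1 clone of targeted embryonic stem cells, which every KO library shares.

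Interleukin-1 alpha and beta are agonists of the same receptor, encoded by *Il1r1*, and the receptor antagonist encoded by *Il1rn* occupies that receptor without signalling. The precursors of interleukin-1 beta and interleukin-18 are cut by caspase-1 in the inflammasome. Tumour necrosis factor (TNF) signals through the receptors encoded by *Tnfrsf1a* and *Tnfrsf1b*, and both TNF and IL-1 are known to promote osteoclast formation together with RANKL, whereas interleukin-10 restrains it.

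The libraries held 27552183 to 42522292 counts. *Slc37a2* itself had 75789, 60889 and 76013 counts in WT and 1233, 1446 and 1043 counts in KO, and it was the single gene called among 13483 tested (adjusted p = 7.07e-04, edgeR's quasi-likelihood test, Benjamini-Hochberg). Summed over marker genes, osteoclast transcripts ran from 38340 to 75628 CPM (counts relative to the library total, scaled by TMM, a correction for library composition). Macrophage transcripts summed to 3643 to 4456 CPM, of which *Cd68* and *Csf1r* made up most, at means of 1780 and 1881 CPM. That sum was highest in KO K089 and does not show the spread of less abundant macrophage markers. *Adgre1* ran from 64.4 CPM in KO K089 to 312 CPM in WT K090. *Mertk* ran from 3.56 CPM in KO K089 to 32.2 CPM in KO L078. Neutrophil markers summed to at most 2.18 CPM, T or NK cell markers to at most 2.45 CPM, B cell markers to at most 0.2695 CPM, mast cell or basophil markers to at most 3.05 CPM and dendritic cell markers to at most 7.28 CPM in any library, whereas stromal or osteoblast markers summed to 584 to 1676 CPM. In these bulk libraries, fewer cells of a type and less RNA per cell cannot be told apart. The labels call the libraries biological replicates, and the p-values measure the spread between these libraries.

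In GENCODE M21 on GRCm38, the IL-1 genes lie on chromosome 2: *Il1a* at chr2:129299610-129309972 and *Il1b* at chr2:129364570-129371139, both on the minus strand, and *Il1rn* at chr2:24336853-24351494 on the plus strand. *Il1rn* has an upstream first exon, which opens the annotated transcript of 159 codons for the intracellular antagonist, and a downstream first exon, which opens the transcript of 178 codons for the secreted antagonist. The deposited counts join these forms. RefSeq promoter windows on GRCm38.p6, each 300 bases with 250 before and 50 after a start site, were given for 9 of the 10 genes. Those of the 2 agonists are shown with 2 of the 3 windows of *Il1rn*, because these genes encode ligands of the same receptor and differed widely in level. The *Il1rn* window left out, chr2:24345121-24345420, overlaps the downstream one shown, whose start is nearer to the annotated exon. Capitals mark matches, on either strand, to TATAAA (the TATA box) or TGANTCA (the AP-1 motif).

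*Il1a*, chr2:129309923-129310222, minus strand: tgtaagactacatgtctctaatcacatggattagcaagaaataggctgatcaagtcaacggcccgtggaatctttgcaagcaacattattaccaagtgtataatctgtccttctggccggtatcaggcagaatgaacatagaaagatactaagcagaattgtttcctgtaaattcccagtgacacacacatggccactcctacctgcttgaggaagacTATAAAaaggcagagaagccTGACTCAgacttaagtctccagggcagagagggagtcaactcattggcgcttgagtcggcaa
*Il1b*, chr2:129371090-129371389, minus strand: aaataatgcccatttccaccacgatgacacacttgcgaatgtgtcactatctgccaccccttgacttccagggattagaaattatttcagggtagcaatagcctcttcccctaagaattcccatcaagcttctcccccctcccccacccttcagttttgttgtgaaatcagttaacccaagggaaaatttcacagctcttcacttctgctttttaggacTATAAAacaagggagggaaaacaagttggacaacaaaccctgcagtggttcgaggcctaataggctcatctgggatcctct
*Il1rn*, upstream start, chr2:24336610-24336909, plus strand: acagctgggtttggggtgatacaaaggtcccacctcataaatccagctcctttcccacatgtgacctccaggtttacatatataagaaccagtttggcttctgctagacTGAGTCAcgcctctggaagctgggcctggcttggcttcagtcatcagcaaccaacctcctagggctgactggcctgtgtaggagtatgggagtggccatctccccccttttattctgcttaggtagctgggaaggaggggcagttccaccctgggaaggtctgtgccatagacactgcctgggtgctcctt
*Il1rn*, downstream start, chr2:24345041-24345340, plus strand: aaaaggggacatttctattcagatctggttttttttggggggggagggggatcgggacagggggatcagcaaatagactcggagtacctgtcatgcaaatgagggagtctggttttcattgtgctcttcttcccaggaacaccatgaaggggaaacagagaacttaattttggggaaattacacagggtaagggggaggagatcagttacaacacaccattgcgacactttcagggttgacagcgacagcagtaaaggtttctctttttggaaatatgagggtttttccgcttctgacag

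*Il1a* and *Il1b* each held TATAAA on the coding strand, as printed, ahead of the start, at -32 to -27 and at -31 to -26. Neither *Il1rn* window shown held it, and the window left out held it on the opposite strand after the start, at 14 to 19. TGANTCA was at -12 to -6 in *Il1a* and at -141 to -135 in the upstream *Il1rn* window. Of 32544 RefSeq windows of this length, 13.6% held TATAAA and 7.79% held TGANTCA. Among the other windows, *Tnf* (chr17:35201958-35202257) held TATAAA at -29 to -24, and *Il18* (chr9:50554450-50554749) held it on the opposite strand at -175 to -170. *Il6* (chr5:30012864-30013163) held the NF-κB consensus, found in 8.49% of windows, at -44 to -35 and TGANTCA at -249 to -243, and an *Il1r1* window (chr1:40266336-40266635) held the NF-κB consensus on the opposite strand at -232 to -223. The PU.1 motif GAGGAAGT, found in 3.11% of windows, matched none of the 12 windows of these genes. These matches describe letters in the windows and are not measured binding sites.

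Levels of the 10 genes, as scaled CPM per kb of the longest coding transcript, spanned several orders of magnitude. *Tnfrsf1a* was the highest at 44.3 (range over the 6 libraries 41.5 to 48.0), and *Il1rn* followed at 37.0 (20.6 to 59.1) and *Tnfrsf1b* at 31.9 (23.2 to 41.7). The ranges of these 3 genes overlapped. *Tnf* came next at 5.31 (3.603 to 7.12), then *Il1r1* at 2.38 (1.06 to 3.86), *Il18* at 1.46 (0.746 to 2.24) and *Il10* at 0.474 (0.262 to 0.701). The ranges of *Tnf* and *Il1r1* overlapped, as did those of *Il1r1* and *Il18*, whereas *Il10* lay below *Il18* in every library. *Il1b* at 0.0927, *Il1a* at 0.0671 and *Il6* at 0.0258 overlapped one another and lay below every value of *Il10*. Among 18753 genes with a length, *Tnfrsf1a* ranked 1585, *Il1rn* 1912 and *Tnfrsf1b* 2219 from the top, and *Il6* ranked 15314. The receptor antagonist was thus 399 times the level of *Il1b* and 551 times that of *Il1a* per kb. With all annotated exons joined as the length, which includes retained introns, *Il1rn* came to 16.5 per kb, behind *Tnfrsf1b*, and to 251 times *Il1b* and 246 times *Il1a*.

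**Figure D1:**
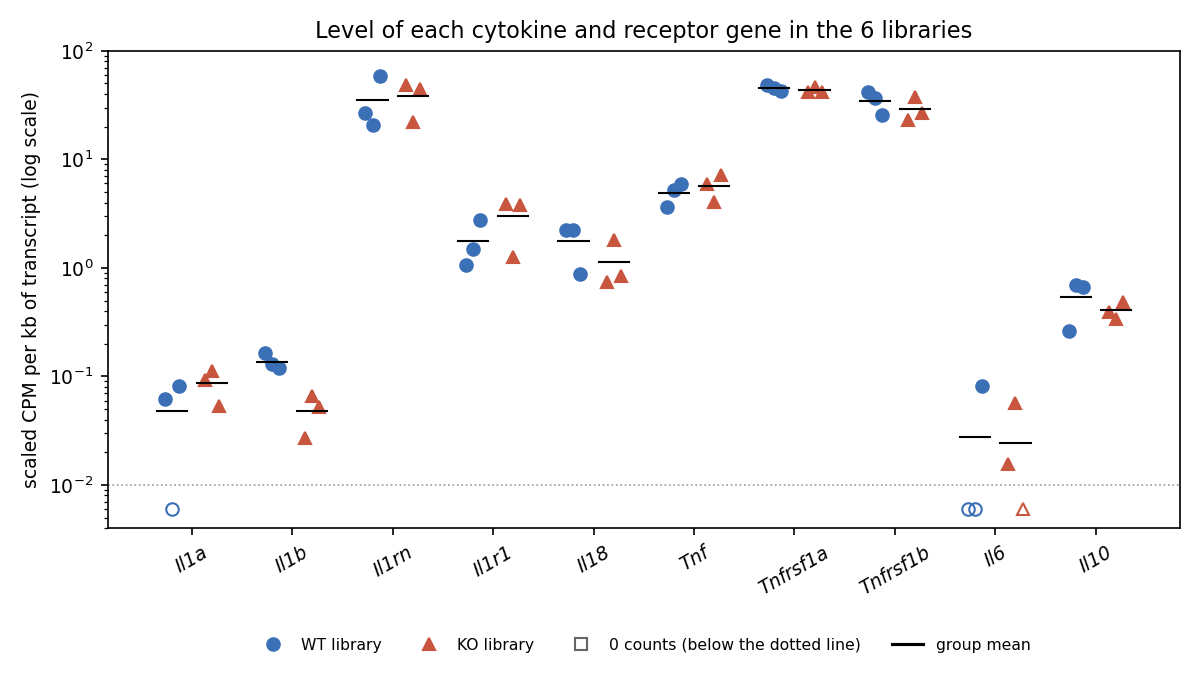
Level of each gene on a log scale, as scaled CPM per kb of its longest coding transcript, in the 3 WT libraries (circles) and the 3 *Slc37a2* KO libraries (triangles), with group means as black bars and libraries at 0 counts as open symbols below the dotted line. Both TNF receptors and *Il1rn* stand between 20.6 and 59.1, while *Il1a*, *Il1b* and *Il6* stay at or below 0.163.

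None of the 10 genes was called between KO and WT. Of these, 7 had enough counts for the test, while *Il1a*, *Il1b* and *Il6* were removed by the filter on low counts. Among the 7, 0 had an adjusted p below 0.05 and 0 an unadjusted p below 0.05 by edgeR's quasi-likelihood test, beside 0.00742% and 0.712% of all tested genes. DESeq2's Wald test and edgeR's likelihood ratio test also called 0 of the 7, beside 0.0148% of all tested genes each. The KO and WT libraries overlapped in all 7, whereas 4.31% of all tested genes had groups that did not overlap. The log2 fold change of KO over WT was above 0 for 3 and below 0 for 4, with a median of -0.07, beside -0.02 over all tested genes. The median size of the change was 0.25 for the 7 genes and 0.098 over all tested genes.

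The agonists were close to the limit of detection. *Il1b* had 9, 5 and 5 counts in K090, L080 and L082, the WT libraries, and 1, 4 and 2 counts in K089, L078 and L081, the KO libraries. In scaled CPM these were 0.221, 0.177 and 0.160 against 0.0367, 0.0888 and 0.0707, so each KO library lay below each WT library. The exact two-sided permutation test gave p = 0.1 for this difference (n = 3 in each group), the smallest p that 3 against 3 libraries allow. Groups did not overlap in 4.31% of tested genes, a share that covers no gene removed by the filter, such as *Il1b*. Pooled and without TMM scaling, the level was 0.193 CPM in WT (95% exact Poisson interval 0.116 to 0.302, 19 counts) and 0.0690 CPM in KO (0.0277 to 0.142, 7 counts). The intervals overlap, and they cover only the error of counting in the pooled counts, not the spread between libraries. Molecular identifiers are not mentioned in the sources used here, so PCR copies could not be set apart.

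*Il1a* had 5, 0 and 5 counts in WT and 5, 10 and 3 counts in KO. The count of 0 in WT library L080 allows up to 0.109 unscaled CPM, and the groups overlapped (exact permutation p = 0.3, n = 3 in each group). *Il1a* shares 222 exonic bases with the antisense gene *Gm14023*, and *Il1b* shares 25 with *Il1bos*. Whether the counting used strand is not given in the sources used here, so reads in those bases cannot be assigned to either gene.

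*Il1rn* was the most abundant of the IL-1 genes and varied more within genotypes than between them. It had 2722, 1442 and 4555 counts in WT and 3272, 2438 and 3141 counts in KO, or 66.7, 51.0 and 146 scaled CPM against 120, 54.1 and 111. WT L082 was the highest library of the 6, and WT L080 and KO L078 were the lowest. The group means were 87.9 ± 51.1 CPM in WT and 95.1 ± 35.8 CPM in KO (SD, n = 3 each), with a log2 fold change of 0.11 (SE 0.46, 95% interval -1.01 to 1.23, adjusted p = 0.976, edgeR's quasi-likelihood test). The sign depended on single libraries: the log2 fold change was -0.05 without WT K090, -0.16 without WT L080, -0.07 without KO K089 and 0.72 without WT L082.

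The number of *Il1rn* counts per *Il1b* count in the same library was 302, 288 and 911 in WT and 3272, 610 and 1571 in KO. The mean log2 ratio was 8.75 ± 0.94 in WT and 10.51 ± 1.22 in KO (SD, n = 3 each), a difference of 1.77 with an exact two-sided permutation p = 0.2. This ratio rests on 1 to 4 *Il1b* counts in KO. For K089, with 1 count, the exact binomial interval of the ratio ran from 587 to 129280.

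*Il1r1*, the signalling receptor of both agonists, had the largest fold change of the 7 tested genes. It had 251, 244 and 505 counts in WT and 612, 331 and 631 in KO, or 6.15, 8.62 and 16.2 scaled CPM against 22.5, 7.35 and 22.3. KO K089 and KO L081 were above every WT library, and KO L078 lay among the low WT libraries. The means were 10.3 ± 5.24 CPM in WT and 17.4 ± 8.68 CPM in KO (SD, n = 3 each). The log2 fold change was 0.75 (SE 0.52, 95% interval -0.51 to 2.01, adjusted p = 0.969, edgeR's quasi-likelihood test), and it was 0.48 without WT K090 and 1.26 without WT L082. *Il1r1* lies at chr1:40225080-40317257, plus strand.

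*Il18* was low where *Il1r1* was high. It had 81, 56 and 24 counts in WT and 18, 72 and 21 in KO, or 1.98, 1.98 and 0.770 scaled CPM against 0.661, 1.598 and 0.742. WT K090, WT L080 and KO L078 were high, and the other 3 libraries were low in both genotypes. The log2 fold change was -0.63 (SE 0.50, 95% interval -1.84 to 0.57, adjusted p = 0.969, edgeR's quasi-likelihood test), and it was -1.17 without KO L078 and -0.40 without KO K089. *Il18* lies at chr9:50554827-50581840, plus strand.

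*Tnf* was detected at a modest level in every library. It had 241, 242 and 304 counts in WT and 266, 297 and 330 in KO, or 5.90, 8.55 and 9.76 scaled CPM against 9.76, 6.59 and 11.7. WT K090 and KO L078 were the lowest and KO L081 the highest. The means were 8.07 ± 1.97 CPM in WT and 9.34 ± 2.56 CPM in KO (SD, n = 3 each), with a log2 fold change of 0.21 (SE 0.27, 95% interval -0.45 to 0.87, adjusted p = 0.969, edgeR's quasi-likelihood test). Leaving out WT K090 took this value to 0.03, and leaving out KO L078 took it to 0.41.

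*Tnfrsf1a* was the most evenly expressed gene of the set, and *Tnfrsf1b* varied about as much as *Tnf*. *Tnfrsf1a*, which encodes the death domain receptor TNFR1, measured 103, 97.8 and 92.3 scaled CPM in WT and 89.7, 100.04 and 89.5 in KO, from 2443 to 4508 counts per library. Its coefficient of variation over the 6 libraries was 6.09%, beside a median of 11.4% over all tested genes. The log2 fold change was -0.07 (SE 0.07), and its 95% interval of -0.25 to 0.11 was the narrowest of the 7. *Tnfrsf1b*, which encodes TNFR2, measured 159, 141 and 96.8 scaled CPM in WT and 88.6, 143 and 102 in KO, from 2414 to 6498 counts. Its coefficient of variation was 24.1%, beside 24.8% for *Tnf*. WT L082 lay with the low KO libraries and KO L078 with the high WT libraries, and the log2 fold change was -0.25 (SE 0.24, 95% interval -0.83 to 0.33, adjusted p = 0.969, edgeR's quasi-likelihood test, as for *Tnfrsf1a*). The *Tnfrsf1b* value was -0.09 without KO K089 and -0.47 without KO L078.

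There were 1.54, 1.44 and 1.05 *Tnfrsf1b* counts per *Tnfrsf1a* count in WT and 0.988, 1.43 and 1.14 in KO. The mean log2 ratio differed by -0.18, with an exact two-sided permutation p = 0.5 (n = 3 in each group). Per kb, *Tnfrsf1a* was 8.34 times and *Tnfrsf1b* 6.004 times the level of *Tnf*, or 6.94 and 6.004 times with all exons joined. *Tnf* lies at chr17:35199381-35202007 (minus strand), *Tnfrsf1a* at chr6:125349362-125362484 (plus strand) and *Tnfrsf1b* at chr4:145213463-145246870 (minus strand).

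The cytokines *Il6* and *Il10* were at or near the bottom of the range. *Il6* had 0, 0 and 6 counts in WT and 1, 6 and 0 counts in KO, and the 3 counts of 0 allow up to 0.0764 unscaled CPM in WT K090, 0.109 in WT L080 and 0.101 in KO L081. A single WT and a single KO library held most of its counts, and a difference was not detectable at this depth (exact permutation p = 1, n = 3 in each group). *Il10* had 14, 26 and 27 counts in WT and 14, 20 and 18 in KO, or 0.343, 0.919 and 0.867 scaled CPM against 0.514, 0.444 and 0.636. WT K090 was the lowest of the 6 libraries and the other WT libraries were the highest. The log2 fold change was -0.41 (SE 0.43, 95% interval -1.44 to 0.63, adjusted p = 0.969, edgeR's quasi-likelihood test), -0.75 without WT K090 and -0.18 without WT L080. *Il6* lies at chr5:30013114-30019981 and *Il10* at chr1:131019845-131024974, both on the plus strand.

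**Figure D2:**
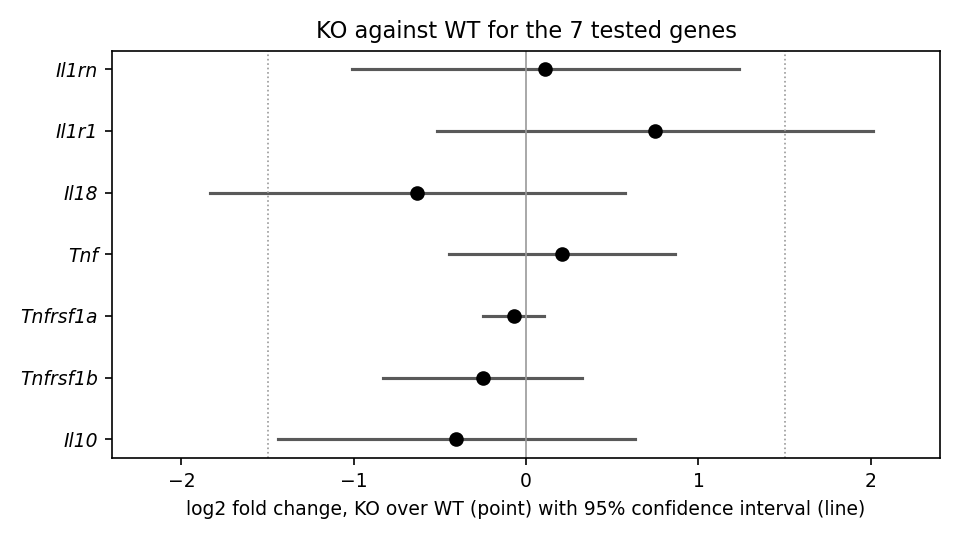
Log2 fold change of KO over WT for the 7 tested genes, as points with 95% confidence intervals as lines, with dotted lines at -1.5 and 1.5. All 7 intervals include 0, and those of 5 genes lie within the dotted lines, the exceptions being *Il1r1* and *Il18*.

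The intervals bound what these libraries can show. A log2 change beyond 1.5 in either direction lay outside the 95% interval for 5 of the 7 genes, and a change beyond 1 lay outside it for 3. For *Il1r1* the interval reached a log2 change of 2.01 and for *Il18* of -1.84.

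The same libraries stood apart in most of these genes. WT L082, KO K089 and KO L081 were the 3 highest libraries for *Il1rn* and were picked by that, so the place of *Il1rn* was fixed in advance. They were also the 3 highest for *Il1r1* and *Tnf* and the 3 lowest for *Il18*, *Tnfrsf1a* and *Tnfrsf1b*. With *Il1rn* counted, this makes 6 of the 7 tested genes, *Il10* being the exception. This split crosses the genotypes unevenly, since KO K089 and KO L081 stand with WT L082 while only KO L078 stands with WT K090 and WT L080. Of all 13483 tested genes, 43.4% put these 3 libraries together at the top or the bottom. What part of a fold change of KO over WT, in these genes or in the lists below, goes with this split was not tested. The medians of marker lists moved with the split. The median of the 7 macrophage genes deviated from the mean of the 6 libraries by 1.06, 0.84 and -0.84 on the log2 scale in WT and by -1.21, 0.81 and -0.64 in KO. *Cd68* went the other way, at 1182, 1283 and 1515 scaled CPM per kb in WT and 1831, 1212 and 1658 in KO. *Csf1r* was highest in KO K089 and KO L081, at 446 and 419. The median of 13 interferon response genes deviated by 1.73, 0.65 and -1.08 in WT and by -1.61, 1.08 and -0.62 in KO. That of 10 osteoclast genes deviated by -0.40, -0.11 and 0.06 in WT and 0.43, -0.30 and 0.25 in KO. Their part in the values of the cytokine genes was not tested.

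**Figure D3:**
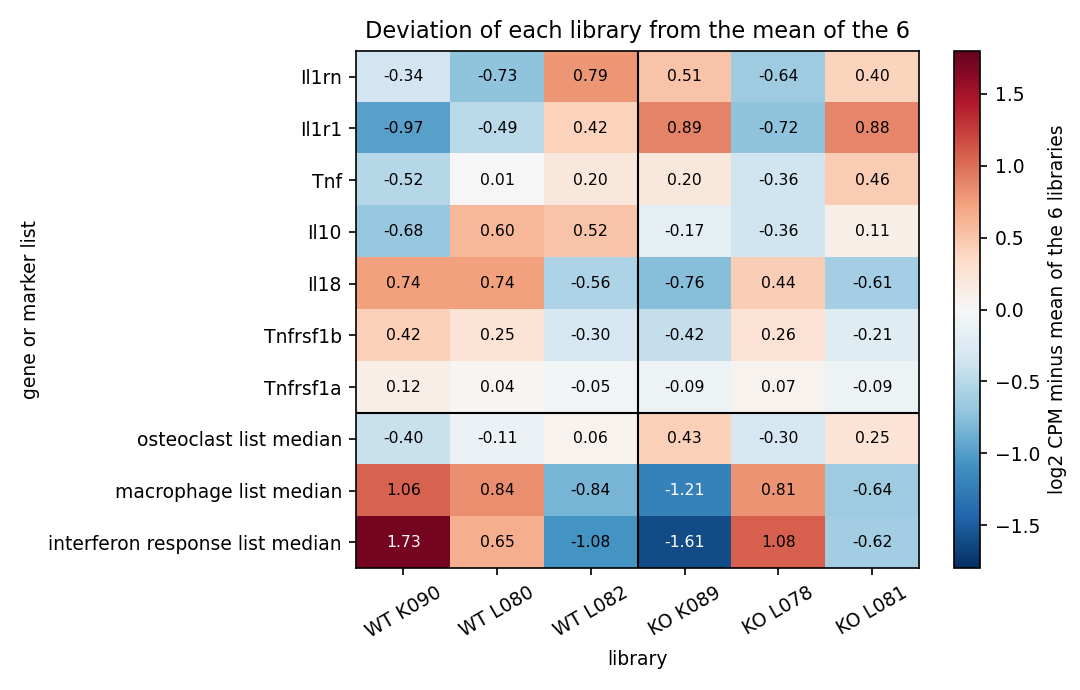
Log2 CPM of the 7 tested genes, and the median over 3 marker lists, as the deviation of each library (columns) from the mean of the 6 libraries (red above, blue below). Except in *Il10*, WT K090, WT L080 and KO L078 lie together above or below WT L082, KO K089 and KO L081. The macrophage list runs from -1.21 to 1.06.

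The codes in the headings begin with K or L, and the headings do not say what this letter marks. In the K libraries, with 1 per genotype, the KO minus WT difference was 1.86 on the log2 scale for *Il1r1* and -1.505 for *Il18*. In the L libraries, with 2 per genotype, it was 0.11 and -0.17. For *Il1rn*, *Tnf*, *Tnfrsf1b* and *Il10*, 4 of the 7 genes, the sign was opposite between the K and the L libraries.

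By likeness of profile over the 6 libraries, *Csrnp1*, *Midn* and *Aff4* were closest to *Il1r1* (Pearson r = 0.998, 0.998 and 0.997), and *Tmem154*, *Lyz1* and *Daglb* to *Il18* (0.999, 0.997 and 0.997). *Irf9*, *Slc28a2* and *L1cam* were closest to *Tnfrsf1b* (each 0.999), and *Fmo5*, *Xpo4* and *Slc16a13* to *Tnfrsf1a* (0.999, 0.997 and 0.994). *Pgm2*, *Cmc2* and *Ykt6* were closest to *Il1rn* (0.995, 0.992 and 0.991), and *Tubgcp4*, *Dbi* and *Zfp180* to *Tnf* (0.990, 0.988 and 0.988). Such values were common: of 11852 genes, 1478 had r above 0.9 with *Il1r1*, 1324 with *Il18*, 630 with *Il1rn* and 386 with *Tnf*. The points share their libraries and the split described above.

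Around the members, the other genes of these pathways were also not called. Of 93 tested genes in 7 pathway lists, edgeR's quasi-likelihood test called 0 in either direction, and 2 had an unadjusted p below 0.05, beside 0.712% of all tested genes. Among IL-1 family ligands and receptors beyond the members, all 7 tested genes had a log2 fold change below 0, with a median of -0.18, none with an unadjusted p below 0.05. Over all tested genes, 43.8% had a log2 fold change above 0. *Il1rap*, the co-receptor that *Il1r1* needs to signal, measured 9.27 ± 1.19 CPM in WT and 7.94 ± 2.34 CPM in KO (SD, n = 3 each, log2 fold change -0.22), and *Il18rap*, a subunit of the interleukin-18 receptor, had a log2 fold change of -0.78. Per kb, *Il1rap* was 0.800 times the level of *Il1r1*, or 0.348 times with all exons joined. *Il1f9* (-0.05) and *Il1rl1*, the interleukin-33 receptor (-0.25, at a mean of only 0.662 CPM), were likewise not called.

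In the inflammasome list, 15 of 18 tested genes had a log2 fold change below 0, with a median of -0.20. The most abundant were *Pstpip1*, which binds pyrin, at 523 ± 111 CPM in WT and 655 ± 165 CPM in KO (SD, n = 3 each, log2 fold change 0.32), and *Txnip*, at 260 ± 25.7 and 227 ± 46.6 CPM (-0.20). The lowest estimates, neither of them called, were -0.48 for *Naip5*, a sensor of bacterial flagellin, and -0.42 for *Nlrp1a*. In the IL-1 receptor signalling list, 6 genes lay above 0 and 6 below, with a median of 0.00. *Tab2* measured 220 ± 6.62 CPM in WT and 214 ± 3.41 CPM in KO, and *Irak1*, a kinase recruited to the IL-1 receptor, 152 ± 1.59 and 165 ± 14.8 CPM (SD, n = 3 each). The inhibitors *Irak3* and *Tollip* had log2 fold changes of -0.32 and 0.24.

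Among 24 genes of TNF release, signalling and mRNA decay, 9 lay above 0 and 15 below, with a median of -0.01. *Mlkl*, the effector of necroptosis, measured 35.6 ± 1.03 CPM in WT and 31.4 ± 2.28 CPM in KO (SD, n = 3 each), with each KO library below each WT library, a log2 fold change of -0.18 and an adjusted p of 0.969 (edgeR's quasi-likelihood test, unadjusted p = 0.0471). Its upstream kinase *Ripk3* had a log2 fold change of -0.39. *Traf1* (-0.06) and *Tnfaip3*, an inhibitor of NF-κB signalling (0.12), were the most abundant, and *Zfp36l2*, an mRNA decay factor, had a log2 fold change of 0.36.

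In the IL-6 family list, 3 of 13 tested genes lay above 0 and 10 below, with a median of -0.11. The shared receptor chain *Il6st* measured 105 ± 6.84 CPM in WT and 97.2 ± 9.98 CPM in KO (SD, n = 3 each, log2 fold change -0.11), and the kinase *Jak1* had a log2 fold change of -0.08, *Osmr* of -0.48 and *Clcf1* of -0.43. In the IL-10 list, 2 of 5 lay above 0. The receptor chain *Il10rb* measured 202 ± 6.21 CPM in WT and 220 ± 21.5 CPM in KO, and the ligand-binding chain *Il10ra* 16.5 ± 8.56 and 11.6 ± 7.96 CPM (SD, n = 3 each, log2 fold changes 0.12 and -0.49). The log2 fold change was -0.05 for *Tyk2* and 0.36 for *Socs1*, the latter at a mean of only 0.767 CPM.

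In the list of other inflammatory cytokines and induced products, 3 of 14 tested genes lay above 0 and 11 below, and the median of -0.46 was the lowest of the 7 lists. *Tgfb1* measured 174 ± 2.24 CPM in WT and 204 ± 17.4 CPM in KO (SD, n = 3 each), with each KO library above each WT library, a log2 fold change of 0.23 and an adjusted p of 0.969 (edgeR's quasi-likelihood test, unadjusted p = 0.0245). The cytokine *Mif* had a log2 fold change of -0.08. *Nos2*, which encodes inducible nitric oxide synthase, and the acute phase gene *Saa3* stood at 1.05 ± 0.594 and 0.694 ± 0.763 CPM in WT and at 0.542 ± 0.459 and 0.370 ± 0.322 CPM in KO (SD, n = 3 each), with log2 fold changes of -0.90 and -0.87. Groups that did not overlap were seen in 4 of the 93 genes, beside the 4.31% of all tested genes given above. These were *Tgfb1* and, named after their values were seen, *Mlkl*, *Map3k7* and *Ltb*.

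**Figure D4:**
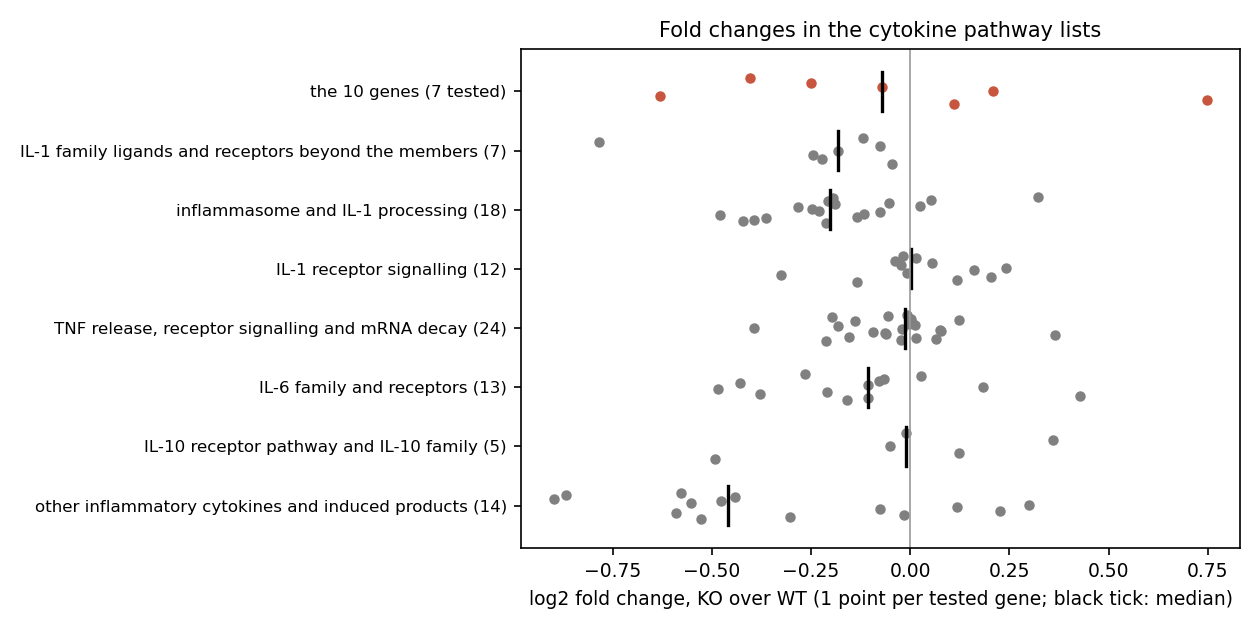
Log2 fold change of KO over WT for each tested gene (1 point each) of the 10 genes and the 7 pathway lists, with black ticks at the medians. The medians run from -0.46 in the list of other inflammatory cytokines to 0.00 in IL-1 receptor signalling, and no point was called.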

How the data were processed

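RNAseq of 3 WT and 3 *Slc37a2* KO osteoclast libraries was analysed. The authors deposited whole-number counts per gene symbol, not normalized, for 22601 genes. The submitters' processing notes name the mm10 build, bcl2fastq 2.20.0.422 and edgeR 3.30.3. The aligner is not given in the sources used here, nor are the counting tool and its gene annotation. The deposited columns of fold change, mean log2 CPM, likelihood ratio, p-value and FDR hold the authors' own comparison and were not used.

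The analysis used R 4.3.3 with edgeR 4.0.16 (filterByExpr with its minimum count of 10, TMM, glmQLFit, glmQLFTest, genotype as the term), limma 3.58.1 and DESeq2 1.42.0. Benjamini-Hochberg adjustment covered all 13483 tested genes, with a threshold of 0.05. Confidence intervals are 95% intervals. A count of 0 was given a limit of 3 counts. Ratios and genes removed by the filter were compared by exact two-sided permutation. Levels per kb divide scaled CPM by the longest coding transcript in GENCODE M21, matched for 18753 symbols (83.0%). Promoter windows are from RefSeq. The quasi-likelihood and likelihood ratio tests with TMM, and DESeq2's Wald test, were tried on simulated data in which 200 genes were changed. The other scalings and filters, the fits with a library left out and the letter term were not simulated. The simulated counts held no split between libraries. Figures were drawn with Python 3.11.15.

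The 10 genes and the lists were chosen with earlier results of these data known. The text names *Slc37a2*, the 10 genes, in each pathway list any called gene, the 2 highest and the 2 with the largest fold change, and the 3 genes most like each tested member with a mean of at least 1 CPM. *Mlkl*, *Map3k7*, *Ltb*, *En2* and the marker genes *Cd68*, *Csf1r*, *Adgre1* and *Mertk* were named after their values were seen, since this rule did not reach them. Alternatives were other scalings, filters and tests, each library left out, and the heading letter as a term. The length of all exons joined was added after seeing the data.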

Additional observations from a re-analysis of the deposited data

How the results depend on the processing

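The count of the 10 genes called was 0, and the count in each pathway list was 0, under other scalings, filters and tests, with the heading letter as a term and with each library left out. For *Il10*, at least 1 CPM in 3 libraries left no value. Over all tested genes the count of calls was 2 (*Slc37a2* and *En2*) by the likelihood ratio test, by DESeq2's Wald test and without the filter, against 1 in the reported analysis. Other scalings, tests, filters and the letter kept the direction of the 7 tested genes, with a smallest adjusted p of 0.950 (DESeq2 and edgeR). With each library left out, *Il1rn* ranged from a log2 fold change of -0.164 to 0.718 and was below 0 without WT K090 (-0.0543), without WT L080 (-0.164) and without KO K089 (-0.0666). The cause was not tested. The other 6 kept their direction: *Il1r1* ranged from 0.48 to 1.26, *Il18* from -1.17 to -0.40, *Il10* from -0.75 to -0.18, *Tnfrsf1b* from -0.47 to -0.09, *Tnf* from 0.03 to 0.41 and *Tnfrsf1a* from -0.13 to -0.03, with a smallest adjusted p of 0.229 (edgeR). The difference in mean log2 *Il1rn* count per *Il1b* count ranged from 1.19 without KO K089 to 2.399 without KO L078, and that of *Tnfrsf1b* per *Tnfrsf1a* from -0.35 without WT L082 to -0.05 without KO K089. No paired analysis was possible because the column headings carry animal numbers and not the replicate numbers of the labels. With 3 libraries per genotype, a spread of 43.3% in *Il1rn* and 54.1% in *Il1r1* (coefficient of variation over the 6 libraries) and at most 10 counts of *Il1a*, *Il1b* or *Il6* in any library limit what a difference in these genes can show.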
